A study of Mus musculus with 18 samples.

Results

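Of the 19992 distal H3K27ac peaks mapped in WT mouse embryonic fibroblasts (MEF), 5901 shared no base with any peak of the Kap1 KO list, and these lost distal peaks are described here. They were chosen by the measured values themselves: a peak had to be called in WT, to have no overlapping peak in Kap1 KO, and to lie more than 1 kb from every annotated transcript start on 17 autosomes, chromosomes 4 and 10 being left out. The lost peaks made up 29.5% of the distal WT peaks (exact 95% interval 28.9% to 30.2%), out of 36275 WT and 36436 Kap1 KO peaks in all. Their absence from Kap1 KO, their scores, widths and positions along the chromosomes come from the contrast that selected them and are given as a description with no test.

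The study profiled chromatin in cells with and without KAP1, in a series of 18 samples. Both H3K27ac libraries came from MEFs of embryonic stage on the C57BL/6 background and used the same antibody (Abcam, ab4729). The WT cells carried the Kap1 loxP/loxP alleles, and the others were Kap1 KO. For RNA-seq, the study's methods describe a Kap1 KO clone grown alongside its WT counterpart for many passages, and whether the chromatin came from that clone is not given in the sources used here. There was 1 library per genotype, so that the spread between cultures is unknown, no test between genotypes can be made, and genotype and library cannot be told apart. All intervals below cover counting error within these lists only.

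Acetylation of lysine 27 on histone H3 marks active promoters and enhancers, and distal peaks of this mark are commonly used as a map of enhancers in a cell type. It is deposited by the acetyltransferases p300 and CBP and removed by histone deacetylases. KAP1, encoded by Trim28, is a corepressor that KRAB zinc finger proteins bring to DNA, where it recruits SETDB1, the methyltransferase that writes the repressive H3K9me3 mark. Fibroblast enhancers often hold the motif of AP-1, the dimer of FOS and JUN proteins that acts downstream of growth factors.

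For a look at the loci themselves, 121 bases are shown around an AP-1 motif in 5 lost peaks at the ceiling score of 3100, the widest of those that hold the motif in their middle 500 bp. Sequences are from the plus strand of mm9, each named by the nearest protein-coding gene, and capitals mark the motif TGANTCA, with any base at N. That base is A or T near Dapk1 and Grb14, and C or G in the others.
Gli2, chr1:121022195-121022315: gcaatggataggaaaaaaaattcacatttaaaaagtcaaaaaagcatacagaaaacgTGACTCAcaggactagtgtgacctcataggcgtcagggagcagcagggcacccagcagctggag
Dapk1, chr13:60518914-60519034: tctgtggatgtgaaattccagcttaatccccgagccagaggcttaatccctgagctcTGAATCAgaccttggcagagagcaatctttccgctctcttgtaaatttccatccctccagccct
Amigo2, chr15:97145918-97146038: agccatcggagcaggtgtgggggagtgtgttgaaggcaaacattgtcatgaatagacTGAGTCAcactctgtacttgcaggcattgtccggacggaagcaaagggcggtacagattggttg
Grb14, chr2:64877796-64877916: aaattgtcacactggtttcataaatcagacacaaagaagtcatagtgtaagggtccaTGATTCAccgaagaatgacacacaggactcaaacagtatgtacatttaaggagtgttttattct
Rps24, chr14:25613249-25613369: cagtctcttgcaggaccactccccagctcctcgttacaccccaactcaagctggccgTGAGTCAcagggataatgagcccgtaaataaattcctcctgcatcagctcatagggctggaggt
The Gli2 stretch lies within the widest of the lost peaks and is intergenic, as are those near Dapk1, Grb14 and Rps24. The stretch near Amigo2 lies in an intron of Fam113b. Of these 5 peaks, the Amigo2 one overlapped a KAP1 peak of Hepa 1.6 cells.

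The fibroblast label was checked against markers. Of 10 fibroblast marker genes on these chromosomes, 9 had a peak within 1 kb of a start in both genotypes, against 1 of 10 hepatocyte markers in WT and 0 in Kap1 KO. For the endothelial, macrophage, epithelial, neural, skeletal muscle and pluripotent stem cell lists, of 7 to 9 genes each, between 0 and 2 genes had such a peak in WT and between 0 and 3 in Kap1 KO. The macrophage list went from 2 genes to 3, the skeletal muscle list from 1 to 2 and the pluripotent list from 0 to 2. The start of Trim28 itself had a peak in both genotypes, which does not check the deletion, since the lists hold no reads.

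Most of the lost peaks were weak and narrow. Their median score was 116, with the middle of the distribution between 75.7 and 224, while the 14091 distal peaks kept in Kap1 KO had a median of 505. The score is the peak caller's value and ranks peaks within a library. The lost peaks had a median width of 1173 bp (range 373 to 8017 bp) and the kept peaks one of 1901 bp. Scores under 80, the cutoff named in the study's methods, were held by 1701 of the lost peaks, or 28.8%, and by 7.21% of the kept ones. At the other end, 147 lost peaks, or 2.49%, had a score of at least 1000, against 35.0% of the kept peaks.

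The mirror set, the 6804 distal peaks found in Kap1 KO alone, was built alike in these respects. It made up 32.5% of the 20946 distal Kap1 KO peaks (95% interval 31.8% to 33.1%), with a median score of 127 and a median width of 1242 bp. Lost and gained peaks covered 7.80 and 9.75 Mb, and the kept peaks 31.9 Mb.

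**Figure D1:**
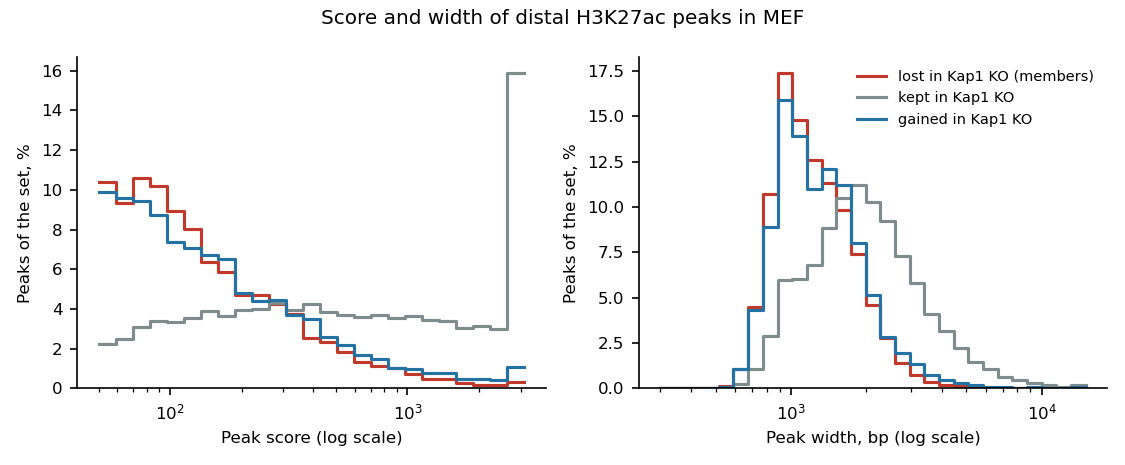
Distribution of peak score (left) and width in bp (right), both on log axes, as the percent of each set of distal H3K27ac peaks per bin: lost in Kap1 KO (red, n = 5901), kept (grey, n = 14091) and gained (blue, n = 6804). Lost and gained peaks overlie each other at low scores and widths, and the grey spike at the right is the ceiling of the score near 3100, where the few scores above it are also counted.

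The share of WT peaks lost in Kap1 KO fell with their score. Among distal WT peaks with scores of 50 to 80, 62.6% were lost, and this share was 34.5% at 150 to 300, 10.6% at 600 to 1200 and 0.685% (13 of 1898) at 3100 and above. It was likewise 58.5% among peaks narrower than 1000 bp and 1.58% among those of 4000 bp or more. Within 1 kb of a transcript start, 902 of 11003 WT peaks were absent from Kap1 KO, or 8.20% (7.69% to 8.73%).

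The next Kap1 KO peak lay at a median distance of 11792 bp. A Kap1 KO peak lay less than 1 kb away for 418 of the lost peaks (7.08%), 1 to 5 kb away for 1367 (23.2%), 5 to 10 kb away for 918 (15.6%), 10 to 50 kb away for 2060 (34.9%), 50 to 100 kb away for 563 (9.54%), and 100 kb away or more for 575 (9.74%). Just inside the rule, 32 lost peaks had a Kap1 KO peak under 100 bp away, with a median score of 72.1 and a median width of 962 bp. Just outside it, 30 kept peaks shared under 100 bp with one, with medians of 73.4 and 971 bp. At the other limit, the 22 lost peaks in the first 100 bp beyond 1 kb from a start had a median score of 136, and the 35 absent peaks in the last 100 bp before it had one of 133.

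Chromosomes differed in their share of lost peaks. On most of the 17 it lay between 22.9% (chromosome 3) and 33.2% (chromosome 1). Chromosome 13 had the highest share, 459 of 1231 distal WT peaks or 37.3% (34.6% to 40.1%), and chromosome 18 the lowest, 78 of 520 or 15% (12.0% to 18.4%). The gained peaks ran the other way on chromosome 18, where 53.8% of the distal Kap1 KO peaks were absent from WT, against 29.1% on chromosome 13. The lists hold no reads, so whether the cells differed in the copy number of these chromosomes was not tested. Leaving out chromosome 18 gave a share of 29.9% overall.

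**Figure D2:**
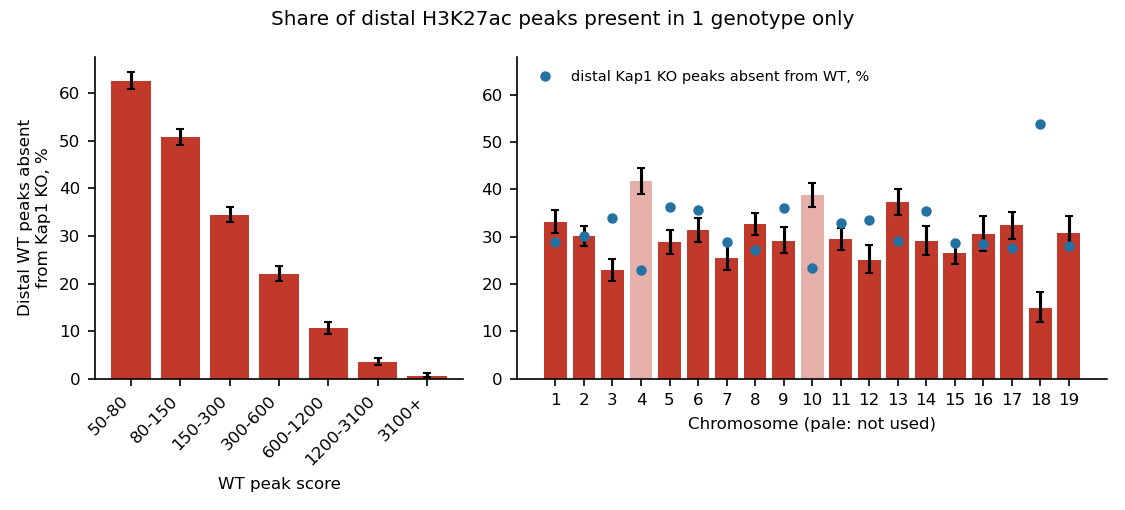
Percent of distal WT peaks absent from Kap1 KO, by WT score (left) and by chromosome (right), with exact 95% intervals as error bars. Blue points give the percent of distal Kap1 KO peaks absent from WT, pale bars are the chromosomes not used, and chromosome 18 has the lowest bar (15%) and the highest point (53.8%).

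The lost peaks lay at a median of 20030 bp from the nearest transcript start, with 997 of them (16.9%) within 5 kb and 729 (12.4%) beyond 100 kb. Their place in genes, which the rule did not use beyond that distance, differed from that of the other sets. The middle of 54.3% of the lost peaks (53% to 55.5%) lay inside an annotated gene, against 47.6% of the kept and 38.1% of the gained peaks. The difference was 6.62 percentage points from the kept peaks (Newcombe 95% interval 5.10 to 8.13) and 16.2 points from the gained ones (14.5 to 17.9). Introns accounted for nearly all of it, holding 51.5% of the lost, 45% of the kept and 36.4% of the gained peaks. The shares inside genes were not compared among peaks of like score or width. Base composition was alike, with a median GC content of the middle 500 bp of 46.0%, 46.6% and 45.2%.

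The lost peaks seldom met the marks of the KAP1 pathway. In Hepa 1.6 cells, a mouse hepatoma line, 101 lost peaks, or 1.71%, lay over a KAP1 peak, while 6.42% of the kept and 6.33% of the gained peaks did. The difference was −4.70 points from the kept (−5.22 to −4.17) and −4.62 from the gained peaks (−5.30 to −3.96). The hepatoma line is another cell type, and KAP1 binding in MEFs was not analysed here. SETDB1, also from Hepa 1.6, overlapped 16 lost peaks (0.271%), against 0.539% and 1.04%.

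H3K9me3 peaks of WT MEFs shared at least 1 base with 7 of the lost peaks, or 0.119% (0.0477% to 0.244%). The kept peaks were overlapped in 0.596% of cases and the gained peaks in 4.81%. The lost peaks differed from the gained ones by −4.69 points (−5.23 to −4.19). By the rule, lost peaks had an H3K27ac peak in WT and gained peaks had none. These sets were thus unlike in WT from the outset, and the difference between them is only a description. Kept peaks were wider, and in the middle 500 bp the shares were 0.0678% of lost, 0.170% of kept and 3.28% of gained peaks. There the difference from the kept peaks was −0.103 points, with an interval that reached 0 (−0.195 to 0.0176). In Kap1 KO MEFs, H3K9me3 overlapped 4 lost, 8 kept and 5 gained peaks, or 0.0678%, 0.0568% and 0.0735% of these sets. Taking a WT H3K9me3 peak within 1 kb as a hit gave 0.644% of the lost peaks.

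Among 15 short motifs searched on both strands of the middle 500 bp, the AP-1 motif showed the widest gap. It was present in 2092 lost peaks, or 35.5%, in 44.7% of the kept and in 43.3% of the gained peaks, and in 42.0% of all distal WT peaks. The lost peaks were lower by −9.29 points than the kept ones (−10.8 to −7.82) and by −7.86 points than the gained ones (−9.55 to −6.16). A match shows only that these letters stand in the window. The AP-1 letters TGANTCA allow any base at N, and sites with C or G there were not counted apart from those with A or T.

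Since lost peaks were weaker and narrower, the AP-1 shares were also set against each other within 4 score classes, 4 width classes and 3 GC classes. The lost peaks had the lower share in each of these 11 strata, by −4.33 to −11.3 points against the kept peaks, and no interval reached 0. The gained peaks, which resemble the lost ones in score and width, also had the higher AP-1 share in each of them. At the strongest peaks the gap could not be told from 0 or from the −6.62 points of the highest score class. Above a WT score of 686, the median of the whole WT list, 293 lost and 6091 kept distal peaks remained, and the difference was −3.23 points with an interval of −8.77 to 2.59. The KAP1 overlap was likewise lower than in kept peaks in all 11 strata, but the gap was smaller among peaks of like score or width. It was −1.85, −1.41 and −2.66 points in the 3 lower score classes and −1.70, −2.20 and −2.50 points in the 3 lower width classes, against −4.74 and −4.68 points in the highest ones. Above the score of 686 it was −4.55 points (−6.60 to −1.39).

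The other motifs differed less. Of the site bound by nuclear factor I (NFI) proteins, only a part was searched, TTGGCA. It was in 28.9% of the lost, 26.9% of the kept and 23.5% of the gained peaks. The lost peaks stood 5.41 points above the gained ones (3.88 to 6.94). The E-box CAGCTG, bound by basic helix-loop-helix proteins, was in 29.0%, 27.4% and 26.1%. The GC-rich KLF/SP motif GGGCGG was in 9.93% of the lost, 11.6% of the kept and 6.23% of the gained peaks. The IRF motif AANNGAAA was in 52.9%, 49.3% and 52.3%. For the RUNX motif TGTGGT the shares were 36.9%, 37% and 36.8%, with intervals of the difference of −1.60 to 1.33 and −1.58 to 1.79. The ETS motif GGAAGT was in 30.8%, 31.9% and 32.3%, and the TEAD motif GGAATG, read by the partners of YAP, in 33.7%, 32.8% and 31.7%. The SOX motif ACAATG was in 23.6% of the lost and of the kept peaks and in 25.7% of the gained ones. The GATA motif AGATAA was in 23.8%, 23.5% and 25.7%. The STAT motif TTCNNNGAA was in 16.2% of the lost, 17.3% of the kept and 17.9% of the gained peaks, and the homeobox motif TAATTA in 11.1%, 10.3% and 11.0%. The MYC-type E-box CACGTG was in 6.03%, 6.74% and 6.55%. The longer CRE motif TGACGTCA and the SMAD motif GTCTAGAC were rare, with 29 and 30 lost peaks holding them.

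**Figure D3:**
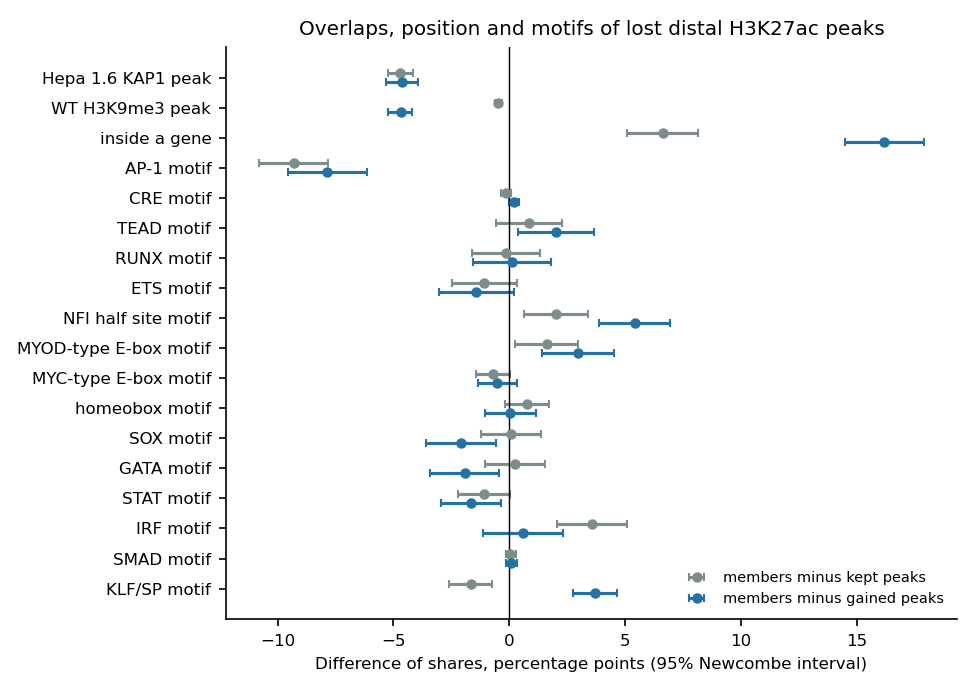
Difference in share, in percentage points with Newcombe 95% intervals, between lost distal peaks and kept peaks (grey) or gained peaks (blue), for overlap with KAP1 and H3K9me3 peaks, place inside a gene and 15 motifs in the middle 500 bp. AP-1 and KAP1 lie to the left of 0 for both comparisons and the place inside genes to the right.

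Some of the lost peaks were grouped. With at most 12.5 kb between neighbours, 1541 of them, or 26.1% (25% to 27.3%), formed 685 runs, and 4360 stood alone. There were 550 runs of 2, 105 of 3, 26 of 4, 2 of 5 and 2 of 6. Kept peaks, which are more numerous, were in runs in 47.3% of cases, and gained peaks in 29.4%. In 590 of the 685 runs no Kap1 KO peak lay in the span, and in 594 each WT peak of the span was a lost one. Peaks in runs had a median score of 124 and a median width of 1239 bp, against 113 and 1151 bp for those alone.

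The longest run lay at chr2:134267018-134308475, in the intergenic stretch between Bmp2, a ligand of the BMP pathway, and Hao1, a liver oxidase. It held 6 lost peaks over 41458 bp, with scores of 1595, 50.8, 1060, 541, 77.9 and 495 along the chromosome, and no Kap1 KO peak. It began 889123 bp from the start of Bmp2. Nearer to Bmp2, the gene was the nearest one for 6 distal WT peaks, all of them lost, with scores of 331, 83.5, 372, 457, 79.0 and 79.0 and widths of 892 to 1830 bp. Neither genotype had a peak at the start of Bmp2. Over the 1500 kb downstream of that start, 22 WT peaks were found, of which 19 were absent from Kap1 KO and 17 were distal lost peaks. The 3 Kap1 KO peaks there all overlapped a WT peak, and at one of them both genotypes had a score of 3100. The other side differed. Over the 1500 kb upstream, most WT peaks overlapped a Kap1 KO peak, and the lost ones had scores of 53.6, 957 and 331. Some Kap1 KO peaks there were absent from WT, with a top score of 2298. In the 1 Mb window of chromosome 2 that starts at 133000001, 8 of 8 WT peaks were lost, in the next one 13 of 16 were absent, and over the 1331 windows with at least 8 WT peaks the median share of absent peaks was 20.0%.

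Gli2, a transcription factor that carries the Hedgehog signal, had lost 12 of its 14 distal WT peaks and gained none. The highest was the intergenic peak at chr1:121018214-121026230, of 8017 bp and a score of 3100, 68018 bp from the Gli2 start and 22512 bp from the next Kap1 KO peak. The others had scores of 450, 53.4, 852 and 1519 inside the gene and of 181, 93.6, 57.5, 81.5, 61.0, 519 and 286 upstream of it. Within 150 kb of the start, 3 Kap1 KO peaks remained. The peak at the start of Gli2 itself was called in both genotypes, with a score of 3100 in WT and 183 in Kap1 KO. Inhbb, the next gene upstream, which encodes an inhibin subunit, had lost 3 of 4 distal peaks and its start peak.

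**Figure D4:**
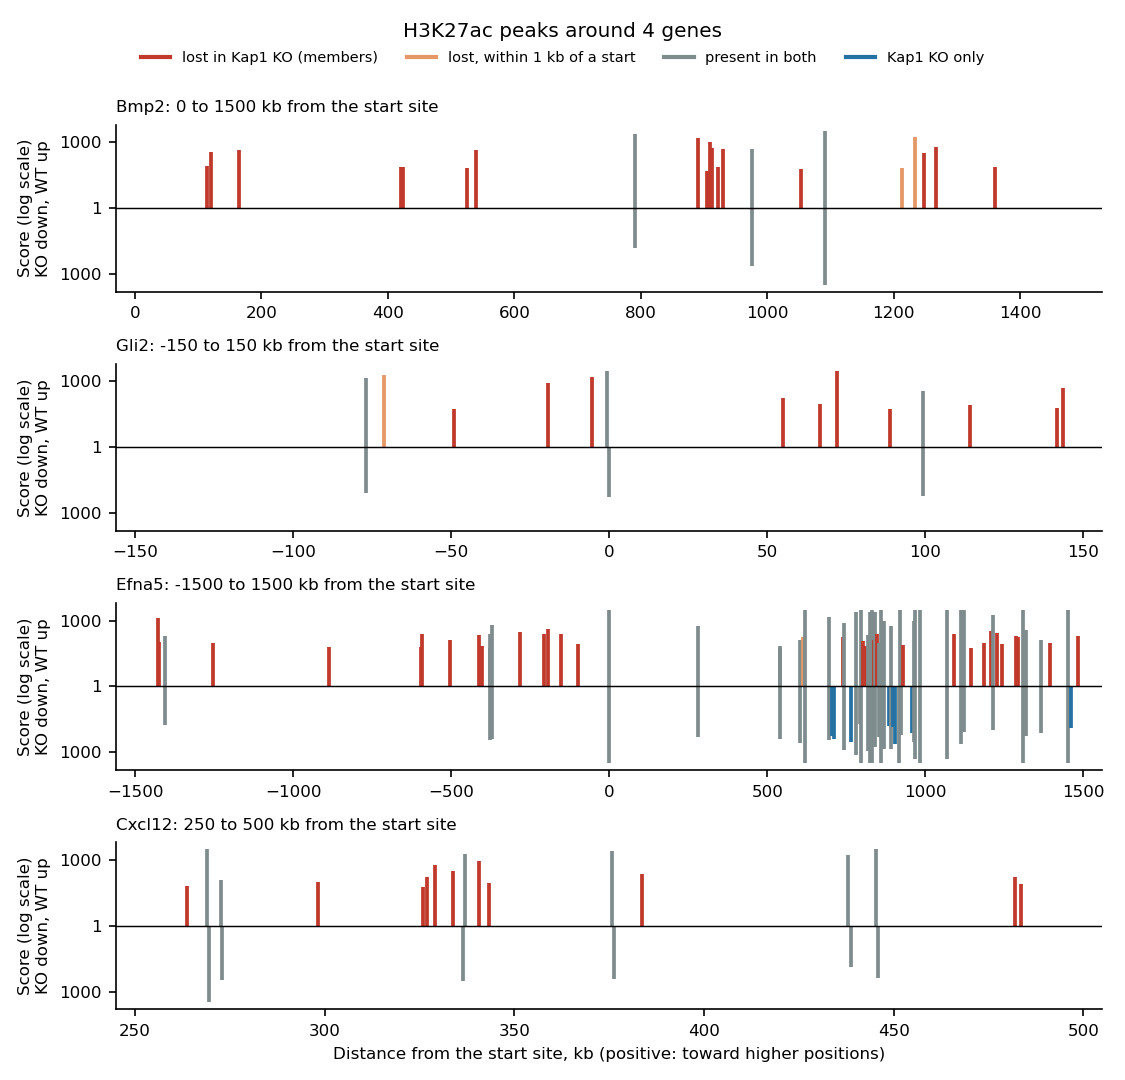
H3K27ac peaks around Bmp2, Gli2, Efna5 and Cxcl12 by distance from the start site in kb, with the WT score upward and the Kap1 KO score downward on a log axis: lost distal peaks red, lost peaks within 1 kb of a transcript start orange, peaks of both genotypes grey, Kap1 KO peaks absent from WT blue. Downstream of Bmp2, the only side drawn for it, 19 of 22 WT peaks have no counterpart below the line, and around Gli2 11 of 14 have none.

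Other long runs were spread over 8 chromosomes. On chromosome 6, at 117444000 to 117462338, 6 lost peaks with scores up to 884 lay between the predicted genes Rpl28-ps4 and Gm7292. They belong to a stretch 250 to 500 kb downstream of Cxcl12, a chemokine made by stromal cells, in which 11 of 17 WT peaks were lost and 6 Kap1 KO peaks were found. Runs of 5 lay 92247 bp upstream of Zmiz1, a transcriptional coregulator, and inside Pxn, which encodes the focal adhesion protein paxillin. Runs of 4 included one 31817 bp from Adrb1, a beta-adrenergic receptor, with a top score of 1822, and one inside Adam19, a metalloprotease, with a top score of 1425. The remaining runs of 4 named by the rule included one 53981 bp from the start of Gli2 and those inside Gm949 and Lrch1. The last one, on chromosome 2, lay far from genes, 568536 bp from Mettl15, with scores of 54.6 to 116.

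At the ceiling score of 3100 stood 13 lost peaks, which the score cannot rank. The 10 widest of them were 3063 to 8017 bp wide. The genes nearest to them were Gli2, Thsd7a, Dapk1, Amigo2, Pja2, Grb14, Fgfr1, Cdh11, Mgat5 and Rps24. Fgfr1, a fibroblast growth factor receptor, held its peak in an intron 2514 bp from a start and 4175 bp from the next Kap1 KO peak. Cdh11, the cadherin of mesenchymal cells, was 282803 bp from its peak, which stood 216366 bp from any Kap1 KO peak. Mgat5, a glycosyltransferase that branches N-glycans, held its peak in an intron 12589 bp from the start.

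By nearest start, the lost peaks fell to 3380 of 18897 protein-coding genes, or 17.9%, and 565 genes, or 2.99%, had at least 3. A single lost peak was assigned to 2167 genes. Of the 18897 genes, 7011 were nearest to at least 1 distal WT peak, and only these could have a lost one. Of the 565, 76 had no kept distal peak, 302 had no gained one, and 26 had more gained than lost peaks. Among the 3380 genes with at least 1 lost peak, 1178 had no kept distal peak. Like counts for gained peaks over all genes are not given here. The nearest gene is not necessarily the one that an enhancer acts on. When starts of any gene type were allowed, 336 protein-coding genes had at least 3 lost peaks, and 367 did with only the peaks within 100 kb of a start.

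The gene with the most was Efna5, which encodes ephrin-A5, a membrane-bound ligand of Eph receptors, with 17 of 22 distal WT peaks lost and 1 gained. Their scores ran from 60.4 to 1369 with a median of 171, and they lay 6826 to 1611270 bp from an annotated start. Zmiz1 followed with 14 of 27. Klf6, a zinc finger transcription factor induced early by serum, had lost 12 of 37, and Gmds, an enzyme of GDP-fucose synthesis, 12 of 18. Nrg1, a ligand of ErbB receptors, had lost 11 of 22 and gained 4.

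Fmn1, a formin that nucleates actin, had lost 11 of 26, Gas7, an adaptor of actin, 11 of 16, and Asap1, an Arf GTPase-activating protein of focal adhesions, 10 of 23. Sox5 and Sox9, transcription factors of cartilage, had lost 9 of 18 and 9 of 19, the latter with scores of 55.9 to 1368 and no gained peak. Negr1, a cell adhesion molecule, had lost 9 of 10, and Ank, a transporter linked to pyrophosphate export, 10 of 18. Psd3 had lost 9 of 15, Tanc1 9 of 15, Nudt12 10 of 20, Tmco5 9 of 13, and the predicted genes Rpl28-ps4 11 of 14, Gm7292 10 of 14 and Gm9747 11 of 22.

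**Figure D5:**
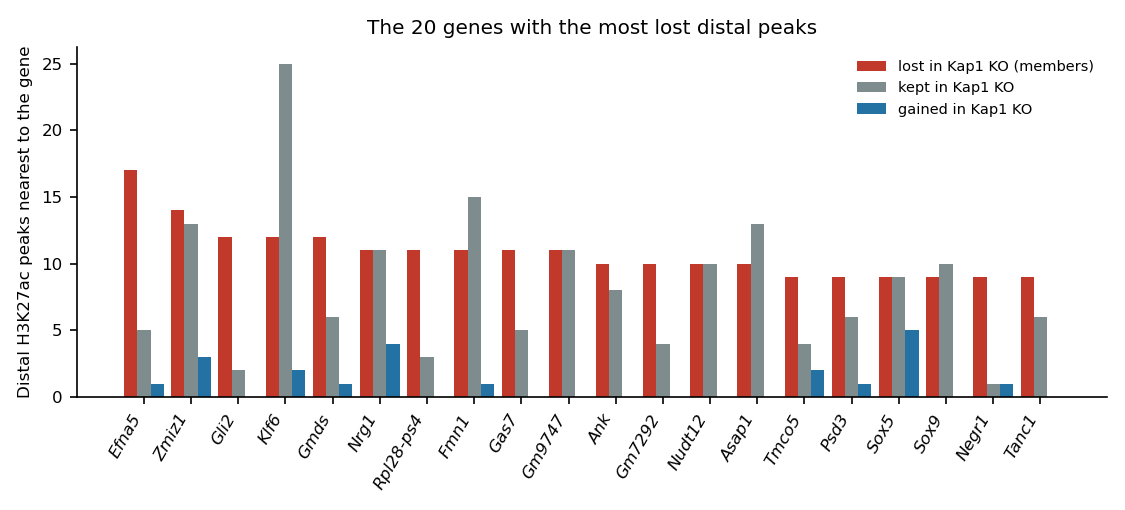
Number of distal H3K27ac peaks nearest to each of the 20 protein-coding genes with the most lost peaks: lost (red), kept (grey) and gained (blue) in Kap1 KO. Efna5 has the most lost peaks (17), Klf6 keeps the most (25), and gained peaks number 5 or fewer at each gene.

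The genes of 12 pathway lists are given next against the 29.5% of all distal WT peaks that were lost, as counts that come from the contrast used by the rule. The lists were not matched for peak score, with which the share lost fell, and their shares carry no intervals. In the Wnt list, 46 of 116 distal peaks were lost, or 39.7%, and 30 were gained. The receptor gene Fzd5 had lost 7 of 9 and Fzd7 3 of 4. The transcription factor genes Lef1 and Tcf7l2 had lost 4 of 6 and 4 of 16, and gained 0 and 5. Rspo2, a secreted activator, had lost 4 of 12 and Ctnnb1, which encodes beta-catenin, 4 of 8. Rspo2 and Ctnnb1 had gained 2 and 3.

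Among growth factors and receptor tyrosine kinases, 77 of 224 distal peaks were lost, or 34.4%, and 42 were gained. All 6 peaks nearest to Fgfr2 were lost, with scores of 137, 339, 559, 352, 265 and 340, although its start had a peak in both genotypes. All 4 near Epha3, an Eph receptor, were lost too. Bdnf, a neurotrophin, had lost 7 of 9, and Efnb2, a ligand of Eph receptors, 4 of 15. Bdnf and Efnb2 had gained 3 and 5. In the TGF-beta and BMP list the share was 25.1%, or 50 of 199, and 59 distal peaks were gained. Besides Bmp2 and Inhbb, Ltbp1, which binds latent TGF-beta in the matrix, had lost 7 of 20, Inhba 3 of 20, Smad3 3 of 17 and Tgfb3 3 of 9. Ltbp1, Inhba, Smad3 and Tgfb3 had gained 8, 4, 1 and 2.

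The extracellular matrix list had lost 76 of 242, or 31.4%, and gained 45. Adamts5, an aggrecan-cleaving protease, had lost 6 of 17 distal peaks together with its start peak, and had gained 5. Nid2, a basement membrane protein, had lost 4 of 5. Col12a1 had lost 4 of 9, Thbs1 5 of 25 and Col5a1 5 of 18, and their gains were 2, 4 and 1. The actin and contractile list stood at 29.4%, 73 of 248, and gained 35. In it Cald1 (caldesmon) stood at 8 of 16, Pxn at 5 of 8, Lpp at 6 of 20, Palld at 5 of 16 and Rnd3 at 5 of 20. Transcription factors of fibroblasts and mesenchyme also stood at 29.4%, or 77 of 262, with 62 gained. Here Gli2 and Sox9 led, followed by Runx2 with 6 of 17, Foxc2 with 6 of 18, Zeb2 with 5 of 17 and Foxp1 with 4 of 23. Runx2, Foxc2, Zeb2 and Foxp1 had gained 1, 0, 3 and 7.

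The lowest shares among the larger lists were at AP-1 and immediate early genes, 29 of 156 or 18.6%, and at inflammation genes, 26 of 125 or 20.8%. In that order, these lists gained 31 and 29 distal peaks. Myc, which held 54 of the 156 peaks of the AP-1 list, had lost 5 of them and gained 14. Egr3 had lost 3 of 7, Dusp1 2 of 4, Klf10 2 of 6 and Jdp2 2 of 6, and their gains were 0, 0, 1 and 2. In the inflammation list, Il1rl1, the receptor of interleukin 33, had lost 7 of 8 distal peaks, with scores up to 1553, and its start peak, while Ptgs2, the inducible cyclooxygenase, had lost 3 of 16. Cxcl12 had lost 2 of 2, Vcam1 2 of 5, Lif 2 of 8 and Hif1a 2 of 10. Gains were 5 at Ptgs2, 3 at Lif, 1 each at Vcam1 and Hif1a, and 0 at Il1rl1 and Cxcl12.

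The small lists had few distal peaks. The Hox genes had lost 1 of 15, the cell cycle and p53 genes 8 of 42, with Gadd45a at 2 of 6, and the KAP1 silencing machinery 6 of 15, with Cbx5, which encodes HP1 alpha, at 2 of 3. In that order, these lists gained 1, 11 and 9. The genes of enhancer and acetylation machinery had lost 18 of 54, or 33.3%, and gained 9. Of these, Kat2b, an acetyltransferase, had lost 4 of 5, Arid1b 3 of 9 and Hdac4 3 of 8, and their gains were 1, 3 and 0. At the fibroblast marker genes 8 of 43 were lost, or 18.6%, among them 3 of 5 at Col3a1 and 3 of 11 at Col1a2. Of the other marker lists, the endothelial one had lost 3 of 17 distal peaks and gained 8, with Cdh5 at 2 of 9 lost and 7 gained. The muscle list had lost 3 of 9, all at Pax3, where 3 of 7 were lost. The epithelial list had lost 2 of 19, the pluripotent one 1 of 6, the neural one 1 of 4, the macrophage one 1 of 3 and the hepatocyte one 0 of 1. In that order, they gained 4, 11, 0, 7 and 0.

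Scores of the WT peaks that remained beside the lost ones were set beside those of the Kap1 KO peaks over them, although a score ranks peaks within a library and the depths of both libraries are unknown. Leaving out WT scores of 3000 or more because of the ceiling, 1946 kept distal peaks lay within 12.5 kb of a lost peak, with a median score of 570 in WT and 318 in Kap1 KO, and 67.2% of them (65.1% to 69.3%) had the lower score in Kap1 KO. Of the 10197 kept distal peaks farther away, 48.1% did (47.1% to 49.1%), with medians of 357 and 403. Among kept peaks within 1 kb of a transcript start, 79.5% of the 166 at genes with at least 3 lost peaks had the lower score in Kap1 KO, against 68.1% of the 2387 at genes with none. These groups were not matched for WT score. Having a lost peak nearby is also itself set by the contrast of these libraries.

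Start peaks were at times lost with the distal ones. Of the 565 genes with at least 3 lost distal peaks, 455 had a WT peak within 1 kb of a start, and 36 of these starts, or 7.91%, had none in Kap1 KO. Over all protein-coding genes this was 479 of 10386, or 4.61%. For genes nearest to at least 1 distal WT peak it was 241 of 4862, or 4.96%. With at least 1 lost distal peak it was 154 of 2481, or 6.21%. Among the 76 genes with at least 3 lost and no kept distal peaks, it was 7 of 51. These counts and scores come from the same 2 libraries as the rule and are given without a test.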

How the data were processed

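H3K27ac ChIP-seq peaks of WT and Kap1 KO MEFs were used, with the H3K9me3 lists of both genotypes and the KAP1 and SETDB1 lists of Hepa 1.6 cells, 1 library each. The other samples of the series were not analysed here. The deposited lists give, per peak, its interval and a score, with no read counts. The depth is therefore unknown, and regions without a called peak can still carry acetylation below the caller's threshold. Per the submitters' processing notes and the methods, reads were mapped on mm9 with Bowtie2 2.2.1 (sensitive-local) after CASAVA 1.82, and peaks came from MACS 1.4 with total input as control. HISAT2 and bedtools are also named. A score of 80 is named as cutoff in the methods, yet the H3K27ac lists start at 50.0. The scores end near 3100 and served to rank peaks.

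Peaks were distal when no base lay within 1000 bp of a transcript start of the GENCODE annotation of mm9, and lost when they shared no base with a Kap1 KO peak. Overlaps were computed with Python 3.11.15, numpy 2.4.6 and pandas 2.3.3, were tested on simulated data, and were checked against bedtools 2.31.1 (8269 WT peaks without overlap by both, over all chromosomes). Each peak went to the protein-coding gene with the nearest start, gene models of 1 symbol and chromosome being joined. Runs had gaps of at most 12500 bp. Shares carry exact Clopper-Pearson intervals and differences Newcombe intervals at 95% (scipy 1.17.1), and neighbouring peaks are not independent. Plots were drawn with matplotlib 3.10.9. No p-value was computed.

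The lost peaks, gene lists and motifs were chosen with earlier results of these data known. Genes named were the 20 with the most lost peaks, the nearest ones of the 10 highest peaks (ties by width) and 10 longest runs, and, in each list, up to 6 genes with at least 2 lost peaks. Some genes that this rule names are not reported here. The gene maps, the 1 Mb windows, the scores of kept peaks and the score and width classes were chosen after their values were seen. Alternatives changed the score minimum, the overlap, the distance from starts, the starts used, the chromosomes, the gap of runs, the assignment to genes and the motif window.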

Additional observations from a re-analysis of the deposited data

How the results depend on the processing

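No paired analysis was possible because each genotype has 1 H3K27ac library and no replicate number. Of 60 recomputed values of the main results, 35 stayed within the interval of the value given in the report or within 1.5 times its count. The other 25 moved, and 0 changed sign. Only the AP-1 difference could have changed sign, since the other results are shares or counts. With a WT score of at least 80, the share of distal WT peaks lost was 24.3%, the share of lost peaks in runs 22.0%, the genes with at least 3 of them 363 and the AP-1 difference from kept peaks −7.67 points. Above the median WT score, these were 4.59%, 5.80%, 2 genes and −3.23 points, with 0% of the lost peaks over WT H3K9me3 (up to 1.25%) and 51.5% inside genes. With no Kap1 KO peak within 1 kb, the share lost was 27.4%, and over all 19 autosomes 30.8%. With distal meaning more than 5 kb, 51.3% lay inside genes. Run gaps of 5 and 25 kb gave 14.5% and 38.7% in runs. Nearest starts of any gene type gave 336 genes with at least 3, and a limit of 100 kb gave 367. A WT H3K9me3 peak within 1 kb was found for 0.644%. The AP-1 difference was −11.3 points in the highest GC class. Chosen after seeing the data, score classes gave −6.42 and −6.62 points in classes 2 and 4, and width classes −7.72, −4.33, −7.50 and −5.86. The score minimum moved the counts of lost peaks, runs and genes most, and the depth, which limits the calling of weak peaks, is unknown.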

Other observations

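The 2 autosomes left out by the rule had the highest shares of lost distal peaks. On chromosome 4, 525 of 1258 distal WT peaks were absent from Kap1 KO, or 41.7% (exact 95% interval 39.0% to 44.5%), and 22.9% of its distal Kap1 KO peaks were absent from WT. On chromosome 10, it was 610 of 1572, or 38.8% (36.4% to 41.3%), and 23.5%. The lost peaks there had median scores of 126 and 120.

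Stretches of 1 Mb in which most WT peaks were absent were few. Of 1331 windows with at least 8 WT peaks on the chromosomes used, 6 had at least 80% absent and 61 had none. Besides the neighbouring pair on chromosome 2, the first of which contains Bmp2, these were a window of chromosome 3 with the latrophilin gene Lphn2 (8 of 9 WT peaks), a window of chromosome 12 with Lrfn5, a synaptic adhesion molecule (7 of 8), a window of chromosome 5 with Adrbk2, Myo18b and Sez6l (12 of 14), and a second window of chromosome 3 (8 of 10).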
